A study of Mus musculus with 19 samples.

Results

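Layer 5 of the primary somatosensory cortex (S1) was dissected as an upper and a lower segment, and their libraries, C and D, are 2 of the 7 S1 libraries and of the 19 samples of the series. Both came from male C57BL/6J mice (C57BL/6 in the sample labels) at 56 days of age, for which the labels name no treatment or altered genotype, and each held polyadenylated RNA pooled from the same 8 mice. The neighbouring S1 segments were A (layers 1 to 3), B (layer 4), E (layer 6) and F (layer 6b). Layer 4 was the only replicated segment, with B1 and B2 each from 4 littermates of different litters, whereas C and D had 1 library each. The replicates of layer 4 thus differ in their mice, which C and D do not. The 12 samples of dorsal and lateral cortex were not analysed here. The labels call C and D alike mostly layer 5, and the upper and lower position comes from the description of the dissection. Segments were cut by eye from pieces of cortex, so that a library can hold cells of the layers above and below, and in such bulk tissue fewer cells of a type and less RNA per cell cannot be told apart.

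Layer 5 holds the output neurons of the neocortex. Thick-tufted pyramidal tract neurons, which need the transcription factors Fezf2 and Bcl11b, send axons to the brainstem and spinal cord and lie mostly in lower layer 5. Thinner intratelencephalic neurons project within the cortex and to the striatum and are common in upper layer 5. Layer 4 above holds neurons that receive thalamic input and express Rorb, and layer 6 below holds corticothalamic neurons that express Tle4, Foxp2 and Ntsr1.

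Expression is given as FPKM, fragments per kilobase of transcript scaled to the number of mapped fragments, with the 95% interval that the authors deposited beside it. That interval covers the estimate within 1 library and not the variation between mice. Of 24130 listed Ensembl genes, 11409 were tested, that is, their widest interval over the 7 libraries was at most 50% of their mean FPKM. The libraries held an estimated 41.6 M (C) and 45.9 M (D) mapped fragments, within the range of 31.3 M to 74.9 M over all 7, and the median interval of tested genes spanned 13.5% of the FPKM in C and 12.8% in D. Mitochondrial genes took 9.78% and 9.58% of the summed FPKM in C and D, against 7.76% in B1 and 18.2% in B2.

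C and D, pools of the same mice, differed less than the replicates of layer 4, pools of different litters, so that the ratio of B2 to B1 holds a difference between litters that the ratio of D to C lacks. B1 and B2 also differed in insert length (239 and 193 nt) and in estimated fragments (48.9 M and 74.9 M). Insert lengths in C and D were 184 and 208 nt. The part of litter, insert length and depth in the ratio of B2 to B1 was not tested. The median absolute log2 ratio of D to C was 0.12 over the tested genes, and that of B2 to B1 was 0.29. A ratio of at least 1.5 was reached by 598 genes between D and C and by 2318 genes between B2 and B1, and a ratio of at least 4 by 43 and 137 genes. With intervals that did not overlap as well, a ratio of 1.5 was reached by 596 genes between D and C (5.22%) and by 2315 between B2 and B1 (20.3%). The intervals of C and D did not overlap for 3909 genes (34.3%), whereas those of B1 and B2 did not overlap for 7577 (66.4%). The absolute log2 ratio of D to C was larger than that of B2 to B1 of the same gene for 3082 genes (27%). Over the 11409 genes, which share libraries and are not independent, the Spearman correlation of FPKM was 0.992 for C and D, 0.988 for D and E, 0.979 for B2 and C, and 0.964 for B1 and B2. The ratio of B2 to B1 went with the GC content of the transcripts (Spearman −0.56 over 10801 genes), more than the ratio of D to C did (−0.13), and the part of GC content in the calls below was not tested beyond the adjustment given with the alternative settings.

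A gene was called when the intervals of C and D did not overlap, when the ratio was at least 1.5 on the log2(FPKM + 0.1) scale, and when its absolute log2 ratio was larger than that of B2 to B1 for the same gene. With 1 library of each segment this is a rule of size and no test over samples. It called 236 genes higher in D (2.07% of the genes tested) and 223 genes higher in C (1.95%), together 459 (4.02%). The same rule called 682 genes between D and E (5.98%), 1294 between E and F (11.3%), 1301 between B2 and C (11.4%) and 2332 between B1 and C (20.4%), and its highest shares were 42.3% between A and B2 and 49.9% between A and B1. These FPKM were not rescaled. A scale factor from the median of ratios over tested genes was 0.766 in A, against 0.945 in B1 and 0.942 in B2. Mitochondrial genes took 21.8% of the summed FPKM in A. The part of scale in these shares was not tested.

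Many of the largest ratios belonged to small or nested features. Of the 459 genes called, 57 were at 0 in C or in D, 80 were antisense genes by their annotation and 63 carried identifiers that the later annotation does not name. Snord32a, a small nucleolar RNA, was at 30.0 FPKM in C and counted as 0 in the other 6 libraries. Gpr21, which encodes an orphan receptor, counted as 0 in A, B1, B2 and C and was at 4.61, 7.06 and 6.44 FPKM in D, E and F. A gene not listed for a library was counted as 0 there, with an interval of 0 to 0 set here rather than by the authors. Such an interval does not overlap any interval above 0. Among genes listed in all 7 libraries, 206 were called higher in D and 177 higher in C. A value of 0 can also be a failed estimate among overlapping models, and the counting is not stated to use strand. For these reasons no ratio is given for such features. A restricted set was therefore described as well, chosen after these values were seen: 9169 protein-coding genes listed in all 7 libraries with a mean of at least 1 FPKM. Of these, 117 were called higher in D (1.28%) and 101 higher in C (1.1%), with median absolute log2 ratios of 0.79 and 0.82, and 38 and 31 of them reached a ratio of 2. The plot of the ratio of D to C against that of B2 to B1 sets the called genes beside the spread of the replicates.

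**Figure D1:**
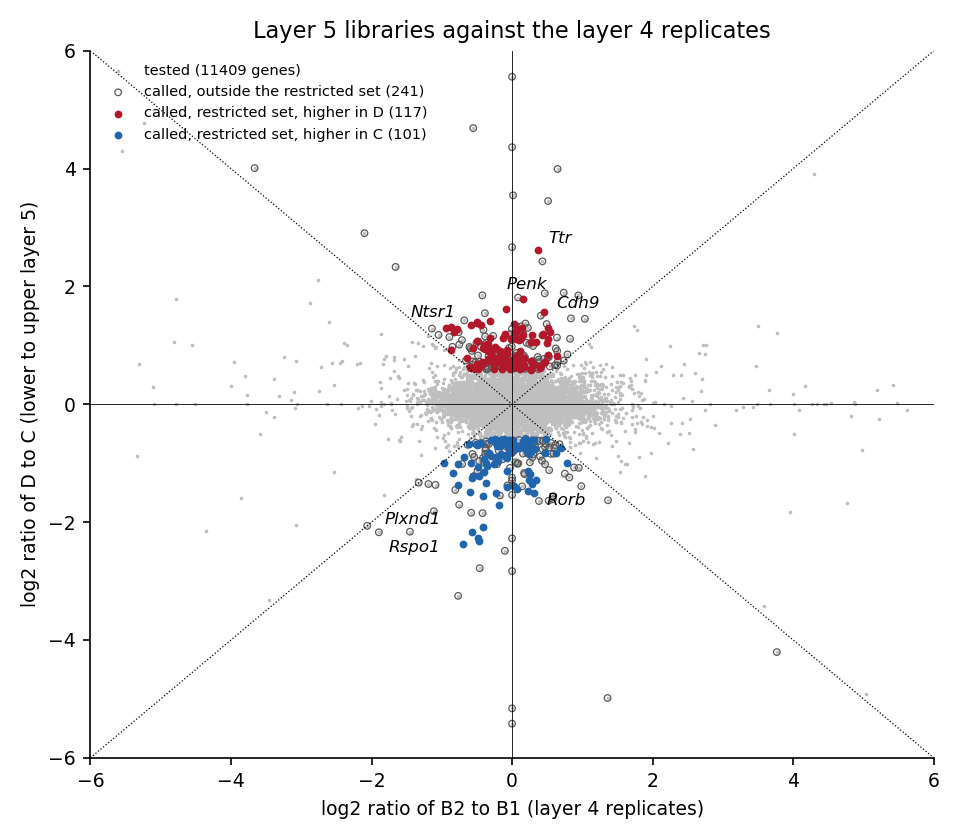
Log2 ratio of D to C (vertical axis) against log2 ratio of B2 to B1 (horizontal axis) for the 11409 genes tested, 1 grey point a gene, with called genes of the restricted set in red (117, higher in D) and blue (101, higher in C) and other called genes as open circles. The axes end at an absolute log2 ratio of 6, so that 21 of these genes are not shown. Dotted lines mark equal absolute ratios, and the cloud is wider along the replicate axis than along the axis of C and D.

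Genes of layer 4 made up the top of the list higher in C. The lists of markers and families were chosen with earlier results of these data known. Counts of their called members thus describe the lists and are no independent support. Of 11 layer 4 markers 8 were tested, 7 of them were called, all higher in C (1.95% of all genes tested were), and their median log2 ratio of D to C was −1.50, against 0.02 over all genes tested. The promoters of these genes are shown first because they share the direction of the difference, in a search for the half-site of nuclear receptors of the ROR family, to which Rorb belongs.

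The half-site AGGTCA, searched on both strands and in capitals below (TGACCT on the other strand), was present in 16.3% of 32851 promoter windows of 300 bases (RefSeq, GRCm38.p6, 250 before and 50 after the start). Among the 7 called layer 4 genes, 6 had a window, with 8 windows in all. The half-site was in 1 of the 8, a window of Plxnd1, 103 bases before the start. GGTGTGA, a core bound by T-box factors such as Tbr1, was in 3.98% of all windows and in none of the 5 windows of the 4 called layer 6 genes that had any. Shown 5′ to 3′ are the windows of the layer 4 gene with the largest log2 ratio, on the log2(FPKM + 0.1) scale, of the only one with a match, and of Ntsr1, a defining gene of layer 6.
Rspo1, chr4:124986180-124986479, plus strand: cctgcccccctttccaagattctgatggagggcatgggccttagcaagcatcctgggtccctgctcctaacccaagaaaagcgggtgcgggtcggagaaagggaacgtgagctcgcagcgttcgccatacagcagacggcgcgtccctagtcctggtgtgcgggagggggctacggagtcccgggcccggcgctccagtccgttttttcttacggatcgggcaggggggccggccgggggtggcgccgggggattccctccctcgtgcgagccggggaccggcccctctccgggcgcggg
Plxnd1, chr6:115994956-115995255, minus strand: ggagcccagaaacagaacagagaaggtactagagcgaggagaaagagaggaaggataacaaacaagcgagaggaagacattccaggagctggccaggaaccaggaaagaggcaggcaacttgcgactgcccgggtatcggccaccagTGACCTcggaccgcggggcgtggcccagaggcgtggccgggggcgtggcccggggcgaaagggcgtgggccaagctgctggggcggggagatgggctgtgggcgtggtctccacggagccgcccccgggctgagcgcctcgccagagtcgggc
Ntsr1, chr2:180499726-180500025, plus strand: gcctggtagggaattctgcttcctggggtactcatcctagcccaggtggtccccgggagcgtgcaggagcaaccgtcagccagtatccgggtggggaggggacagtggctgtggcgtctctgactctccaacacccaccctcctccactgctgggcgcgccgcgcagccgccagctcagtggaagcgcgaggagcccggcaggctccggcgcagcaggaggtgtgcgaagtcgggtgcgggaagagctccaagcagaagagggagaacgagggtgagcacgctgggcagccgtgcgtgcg
The letters are not in the windows of Rspo1 and Ntsr1, which says only that much about these 300 bases.

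Rspo1 (chr4:124663674-124686343, mm9, as all gene positions below), a secreted enhancer of Wnt signalling, had the largest log2 ratio among the genes of the restricted set higher in C, on the log2(FPKM + 0.1) scale. It was at 7.54 FPKM in C (95% interval 6.95 to 8.12) and at 1.38 FPKM in D (1.14 to 1.61), a ratio of C to D of 5.48. In layer 4 it was at 30.1 and 18.6 FPKM in B1 and B2, and in A, E and F at 4.48, 0.534 and 0.936 FPKM. The value in C thus lay between those of layer 4 and D, below both replicates of B.

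Scnn1a (chr6:125271358-125294955), a subunit of the epithelial sodium channel, was at 1.84 FPKM in C and 0.305 FPKM in D, a ratio of 6.04, with 2.87 and 2.02 FPKM in B1 and B2 and 0.18, 0.117 and 0.297 FPKM in A, E and F. Plxnd1 (chr6:115904829-115945023), the receptor of semaphorin 3E, was at 16.4 FPKM in C, close to the 16.2 FPKM of B2 and below the 24.1 FPKM of B1, and at 3.57 FPKM in D. Rorb (chr19:19005095-19185686), an orphan nuclear receptor that defines layer 4, was at 12.6 FPKM in C (12.2 to 12.9) and 4.37 FPKM in D (3.45 to 5.29), with 17.8 and 22.1 FPKM in B1 and B2 and 2.23 FPKM in E. For all 3 genes C was above D and D above E, and C was below both replicates of layer 4 for Scnn1a and Rorb.

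Cux2 and Cux1, homeodomain factors of the upper layers, were at 9.17 and 17.2 FPKM in C and at 3.21 and 10.47 FPKM in D. Kcnh5, a voltage-gated potassium channel, was at 10.8 FPKM in C and 4.13 FPKM in D, with 20.9 and 12.2 FPKM in B1 and B2. Kcnip2, a potassium channel auxiliary subunit and the only tested member not called, was at 41.4 FPKM in C and 38.0 FPKM in D.

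Beyond the layer 4 list, Slc17a6, the vesicular glutamate transporter VGLUT2, was at 6.43 FPKM in C and 2.39 FPKM in D, with 7.73 and 7.86 FPKM in B1 and B2. Neurod1, a basic helix-loop-helix factor, was at 3.18 FPKM in C and 1.12 FPKM in D, against 6.51 and 6.81 FPKM in B1 and B2. Susd5, Klhdc8a and Pamr1 differed from these in that C exceeded both B1 and B2, at 4.91, 6.69 and 28.8 FPKM in C and 1.60, 2.30 and 10.8 FPKM in D. Tspan11, Barx2, Ddit4l, Ccdc3, Cux2 and Kcnh5, also among the 16 largest, had ratios of C to D between 2.61 and 5.91.

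**Figure D2:**
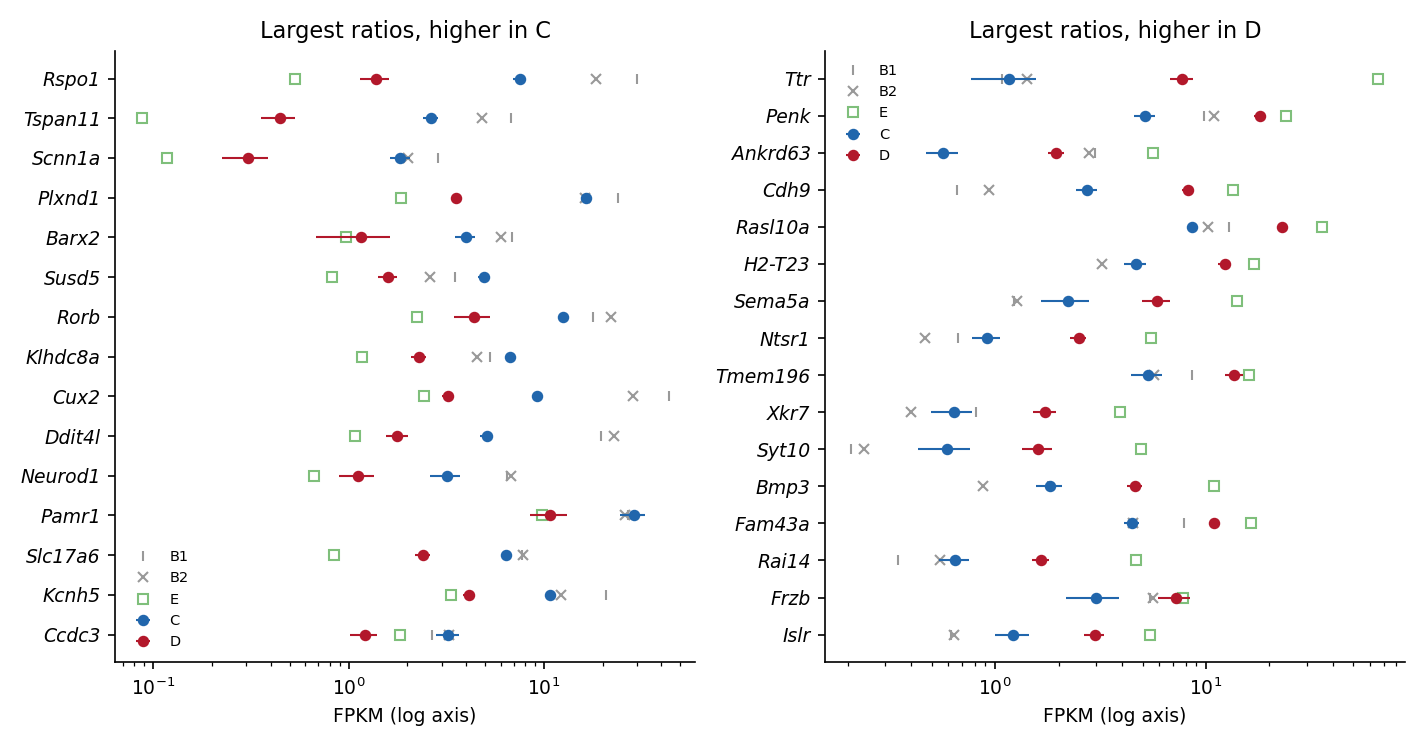
FPKM (log axis) of called genes of the restricted set among the 16 with the largest ratio in each direction, in C (blue) and D (red) with the deposited 95% intervals, and in B1, B2 and E as grey and green marks. In most genes higher in C the marks of B1 and B2 lie at or above C and E below D, and in most genes higher in D, such as Cdh9 and Ntsr1, E lies above D.

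Genes of layer 6 stood on the other side. Of 11 corticothalamic markers 8 were tested and 6 were called, all higher in D (2.07% of all genes tested were), and the median log2 ratio of D to C was 1.11. This list too was chosen with earlier results of these data known. Ntsr1 (chr2:180234681-180279685), a neurotensin receptor, was at 0.918 FPKM in C (0.778 to 1.06) and 2.49 FPKM in D (2.27 to 2.71), with 5.51 and 5.20 FPKM in E and F and 0.664 and 0.463 FPKM in B1 and B2. Tle4, a corepressor of the Groucho family, was at 8.13 FPKM in C and 16.8 FPKM in D, with 35.0 and 39.8 FPKM in E and F. For both genes D lay between C and E.

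Rprm, a gene of cell cycle arrest, was at 17.8 FPKM in C and 40.3 FPKM in D, and at 134.4 FPKM in E. Hs3st4, a heparan sulfate sulfotransferase, was at 16.3 and 34.8 FPKM, Zfpm2, a cofactor of GATA factors, at 1.92 and 4.32 FPKM, and Ighm, the immunoglobulin mu constant region, at 11.7 and 42.3 FPKM in C and D. Ratios of D to C ran from 2.07 for Tle4 to 3.62 for Ighm over the 6 genes called. Foxp2 and Syt6, which did not pass the limit on interval width, were at 0.932 and 2.16 FPKM in C and at 5.03 and 10.4 FPKM in D, with 13.2 and 22.5 FPKM in E. The 2 tested members not called were Tbr1, a T-box factor, at 30.4 and 45.8 FPKM, and Sema3e, a semaphorin, at 7.80 and 10.3 FPKM.

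Layer 6b markers were low in both libraries. Ccn2, a matricellular protein, was at 1.51 FPKM in C and 3.53 FPKM in D, against 31.4 FPKM in E and 167.3 FPKM in F, and Drd1, a dopamine receptor, was at 1.78 and 2.92 FPKM. Both were called, and the other 3 of the 5 tested members were higher in D without a call. Over all genes tested 2.07% were called higher in D, and D was above C for 54.4%.

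**Figure D3:**
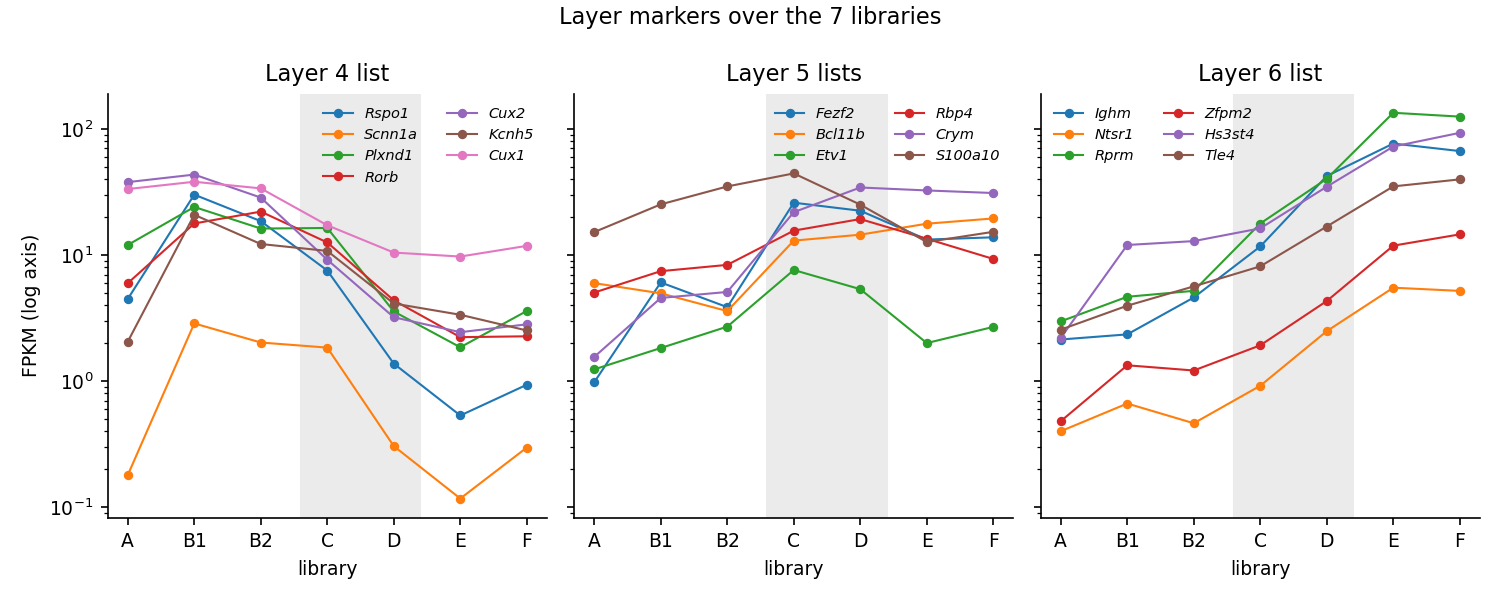
FPKM (log axis) of layer markers in the 7 libraries ordered from the surface (A) to the white matter (F), 1 line a gene, with C and D shaded. Layer 4 genes (left) are higher in B1 and B2 than in D, E and F, layer 6 genes (right) are highest in E or F, and of the layer 5 genes (centre) Fezf2, Etv1 and S100a10 are highest in C, Rbp4 and Crym in D and Bcl11b in F.

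Markers of layer 5 itself were high in both libraries and went both ways. Of 18 markers of pyramidal tract neurons 13 were tested, and 9 of these had their highest FPKM of the 7 libraries in C or D. Over the 6 segments, with B as the mean of B1 and B2, 10.6% of all tested genes were highest in C and 9.72% in D. The 2 measures thus differ in how layer 4 enters. Of the 13, 2 were called higher in D and 1 higher in C, against 2.07% and 1.95% of all genes tested, and their median log2 ratio was 0.12. Fezf2 (chr14:13174616-13178342) was at 26.0 FPKM in C (24.98 to 27.04) and 22.5 FPKM in D (21.6 to 23.4), with 6.06 and 3.86 FPKM in B1 and B2 and 13.3 and 13.8 FPKM in E and F. Its intervals did not overlap, but the log2 ratio of −0.21 was smaller than the −0.64 between B2 and B1.

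Bcl11b, the other factor of this lineage, was at 13.01 FPKM in C and 14.5 FPKM in D, and was higher still in E (17.7 FPKM) and F (19.5 FPKM). The called members went both ways. Crym, a thyroid hormone binding protein, was at 21.9 FPKM in C and 34.3 FPKM in D, and Igfbp4, a binding protein of insulin-like growth factors, was at 56.3 and 94.9 FPKM. S100a10, also known as p11, was at 44.4 FPKM in C and 25.1 FPKM in D, with 25.2 and 35.0 FPKM in B1 and B2.

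The 3 tested intratelencephalic markers were all higher in C and none was called. Of all genes tested, 1.95% were called higher in C, and D was above C for 54.4%. Etv1, an ETS factor, was at 7.60 FPKM in C (7.21 to 8.00) and 5.36 FPKM in D (5.05 to 5.67), with 1.83 and 2.70 FPKM in B1 and B2. Hsd11b1, which regenerates active glucocorticoid, was at 20.8 FPKM in C and 14.5 FPKM in D. For Etv1 the log2 ratio of −0.50 was within the 0.54 of its replicates in layer 4.

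Of the near-projecting markers 2 were tested and both were higher in D, as were 54.4% of all genes tested, with 2.07% called higher in D. Lypd1, a modulator of nicotinic receptors, was at 10.8 FPKM in C and 16.9 FPKM in D and was called. Tshz2, a zinc finger factor outside the limit on interval width, was at 14.5 and 13.8 FPKM. Rbp4, the retinol binding protein used to mark layer 5, was at 15.6 FPKM in C (14.1 to 17.1) and 19.3 FPKM in D (17.7 to 20.9), above the other 5 libraries, whose highest was E at 13.5 FPKM.

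**Figure D4:**
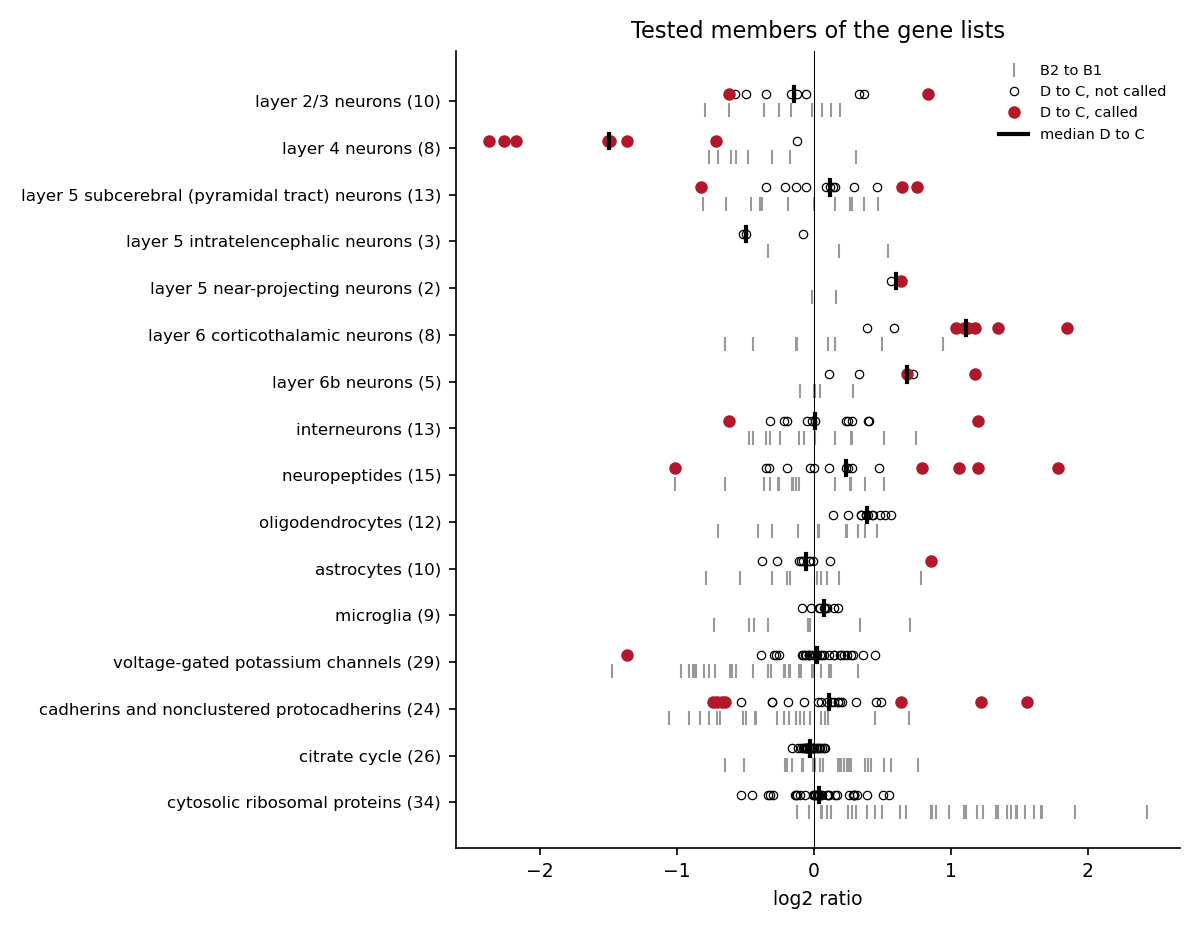
Log2 ratios of the tested members of 16 gene lists, with circles for D to C (filled red where called, open where not), a bar at their median, and grey ticks for B2 to B1 of the same members. The layer 4 list lies to the left of 0 and the layer 6 list to the right, and the list of pyramidal tract neurons on both sides of 0.

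Interneuron genes were near evenly divided. Of 13 tested markers, 1 was called in each direction (4.02% of all genes tested were called) and the median log2 ratio was 0.01. Pvalb, the calcium-binding protein of fast-spiking cells, was at 145.5 FPKM in C and 116.7 FPKM in D, with 70.2 and 118.0 FPKM in B1 and B2, and Sst, which encodes somatostatin, was at 246.5 and 299.6 FPKM. Calb2, or calretinin, was at 2.55 FPKM in C and 1.62 FPKM in D and was called. Gad1, which makes GABA, was at 67.7 and 67.2 FPKM.

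Of 15 tested neuropeptide genes 5 were called, where 4.02% of all genes tested were, which is a description of the list without a test. Penk (chr4:4060684-4065935), the precursor of enkephalins, was at 5.15 FPKM in C (4.57 to 5.74) and 17.98 FPKM in D (16.9 to 19.0), with 9.75 and 10.9 FPKM in B1 and B2, 24.0 FPKM in E and 36.2 FPKM in A. The value in C was the lowest of the 7 libraries. Pdyn (chr2:129512301-129525569), the precursor of dynorphins, went the other way, at 15.4 FPKM in C (14.6 to 16.1) and 7.58 FPKM in D (7.09 to 8.07).

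Crh, corticotropin-releasing hormone, was at 1.95 FPKM in C and 4.61 FPKM in D, Grp, gastrin-releasing peptide, at 2.05 and 4.38 FPKM, and Cort, cortistatin, at 5.00 and 8.72 FPKM. All 3 were called higher in D, and all but Grp had their highest value in A.

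Of the glial lists, that of oligodendrocytes was shifted towards D, with a median log2 ratio of 0.39 against 0.02 over all genes tested. The median of B2 to B1 for this list was 0.14. All 12 oligodendrocyte genes were higher in D, by log2 ratios of 0.14 to 0.56, and none was called, where D was above C for 54.4% of all tested genes. Mbp, myelin basic protein, was at 921.9 FPKM in C and 1203 FPKM in D, against 459.7 and 469.2 FPKM in B1 and B2, 2291 FPKM in E and 6954 FPKM in F. The summed FPKM of the 12 genes was 1716 in C and 2298 in D.

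Of 10 astrocyte genes only Gfap was called, at 4.42 FPKM in C and 8.09 FPKM in D, and the list had a median log2 ratio of −0.06. None of 9 tested microglial and 7 tested endothelial genes was called, with medians of 0.08 and 0.12. Over all genes tested 4.02% were called, so that counts of 0 or 1 in lists of this size say little. Ttr (chr18:20823914-20832383), a transport protein made in the brain by the choroid plexus, had the largest ratio of the restricted set higher in D. It was at 1.17 FPKM in C and 7.70 FPKM in D, with 65.7 FPKM in E and 199.4 FPKM in F, and its part in the other differences was not tested.

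Among adhesion genes, 7 of 24 tested cadherins and protocadherins were called (4.02% of all genes tested were), again in both directions. Cdh9 (chr15:16707856-16785988), a classical cadherin, was at 2.73 FPKM in C and 8.24 FPKM in D, with 13.4 FPKM in E and 0.66 and 0.937 FPKM in B1 and B2. Cdh8 was at 19.3 FPKM in C and 11.8 FPKM in D, and Pcdh19 at 5.63 and 3.57 FPKM. Cdh24 and Cdh18 were also called higher in D, and Pcdh15 and Pcdh20 higher in C.

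Sema5a, a transmembrane semaphorin, was at 2.22 FPKM in C and 5.87 FPKM in D, and was 1 of 2 called genes of 19 tested semaphorins, plexins and neuropilins, beside Plxnd1 (background 4.02%). Efnb1, an ephrin, was at 1.87 and 2.92 FPKM, and Robo3, a receptor of axon guidance, at 1.38 and 2.39 FPKM. Both were called higher in D.

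No family of receptors or channels had more than 1 called member, where 4.02% of all genes tested were called. With 3 to 29 tested members a family, counts of 0 or 1 do not set them apart from that share. Grm2, a metabotropic glutamate receptor, was at 24.2 FPKM in C and 12.1 FPKM in D, with 46.9 and 23.9 FPKM in B1 and B2, and its log2 ratio of −0.99 barely exceeded the −0.97 of the replicates. Htr7, a serotonin receptor, was at 2.96 and 1.53 FPKM. Chrm2, a muscarinic receptor, was at 3.02 FPKM in C and 5.90 FPKM in D, Grik4, a kainate receptor subunit, at 3.95 and 6.98 FPKM, and Kcnj2, an inwardly rectifying potassium channel, at 1.28 and 2.32 FPKM.

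Kcnh5 was the only call among 29 tested voltage-gated potassium channels. In 19 of the 40 lists no member was called, where 4.02% of all genes tested were, and their medians ran from −0.50 to 0.39. These lists hold 270 tested members, counted per list. They were grouped because none of their members was called, so that this count cannot show a lack of calls. They include the sodium, calcium and HCN channels, GABA receptors, neurofilament genes, immediate-early genes, the citrate cycle (26 tested, median −0.03), the nuclear respiratory chain (72 tested, median −0.02) and cytosolic ribosomal proteins (34 tested, median 0.04). The median log2 ratio of B2 to B1 was 0.56 for the nuclear respiratory chain, 0.94 for cytosolic ribosomal proteins and −0.83 for immediate-early genes. A call asks for a ratio larger than that of the replicates, so that calls in these lists were harder to reach. In other lists the replicate median was smaller in size, such as −0.03 for sodium channels.

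The called genes were then placed in the whole series of segments by their ratio of E to the mean of B1 and B2. The call itself used B1 and B2, since it asks that their ratio be the smaller one, so that its genes were chosen for replicates that lie close together. Of the 117 genes of the restricted set called higher in D, 109 (93.2%) had E above the mean of B, where 70.4% of the 9169 genes did. Of the 101 called higher in C, 94 (93.1%) had E below it, where 29.6% of all did. When the replicates were left out of the call, the same held for 121 of 136 genes higher in D (89.0%) and for 104 of 114 genes higher in C (91.2%), a description chosen after the values were seen. With the replicates in the call, the median ratio of E to B was 2.93 for the genes higher in D, and the median ratio of B to E 2.56 for those higher in C, with 1.18 for E to B over the whole set.

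The segment with the highest value was read for the same genes. Among the 117 higher in D it was E for 46 (39.3%, background 19.8%), F for 45 (38.5%, background 33.9%), D for 12 (10.3%, background 9.40%) and A for 11 (9.40%, background 18.1%). Among the 101 higher in C it was B for 44 (43.6%, background 7.73%), C for 31 (30.7%, background 10.9%) and A for 21 (20.8%, background 18.1%). The shares of D and C share a library with the call itself. So do the counts with E above D, 99 of the 117 (84.6%, background 60.6%), and with B above C, 63 of the 101 (62.4%, background 30.0%).

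**Figure D5:**
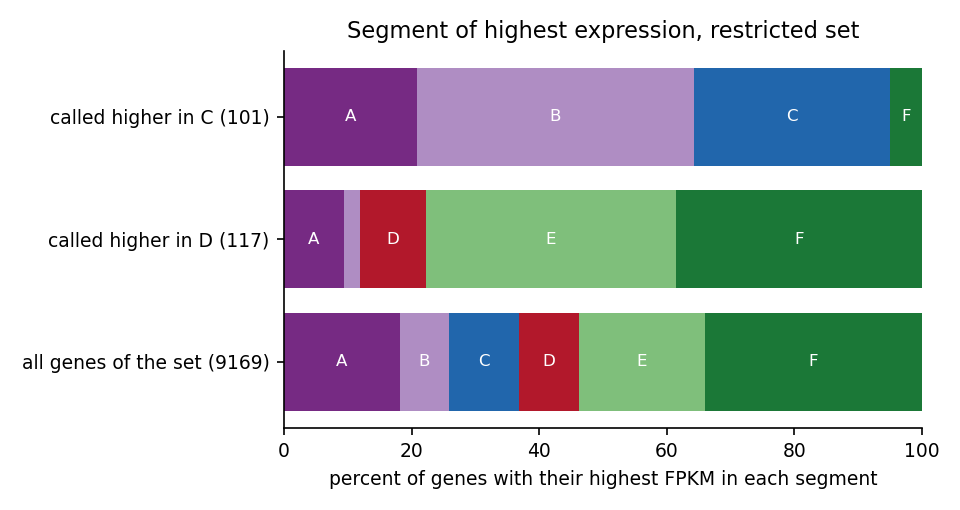
Share of genes (percent, horizontal axis) whose highest FPKM lies in each of the 6 segments, with B as the mean of B1 and B2, for all 9169 genes of the restricted set and for those called. Genes called in 1 direction cannot be highest in the other library, and E and F make up most of the bar higher in D, A and B most of the bar higher in C.

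Genes were also counted that stood out in 1 of the layer 5 libraries over its neighbours, among the 9169 genes of the restricted set. A and F entered neither comparison, and other segments were not counted in this way. In the restricted set, C exceeded D, B1, B2 and E by a ratio of at least 1.25 for 64 genes and of at least 1.5 for 5, and D exceeded C and E by at least 1.25 for 42 and by at least 1.5 for 5. None reached a ratio of 2 in either direction. Pdyn came closest in C, at 1.93 times the next of those libraries, with 7.93 and 6.59 FPKM in B1 and B2 and 1.03 FPKM in E.

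After it came Fam19a1, a secreted chemokine-like protein, at 25.4 FPKM in C and 15.2 FPKM in D, Pcdh19, and Slc6a7, the proline transporter, at 31.8 and 20.8 FPKM. Fam19a1 was higher still in A (29.7 FPKM). Raver2, a splicing factor partner, at 5.04 FPKM in C and 3.27 FPKM in D, and Slit2, a repulsive axon guidance ligand, at 7.30 and 4.84 FPKM, completed the 6 genes. Slit2 was not called.

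In D the leading gene was Aars, the alanyl-tRNA synthetase, at 68.0 FPKM (62.7 to 73.3) against 40.7 FPKM in C (40.0 to 41.5) and 35.5 FPKM in E, but F was at 61.9 FPKM. It was followed by Crh, Lypd1 and Cbln2, a synapse organiser, at 15.9 FPKM in C and 27.96 FPKM in D, and then by Creb3l1 and Serpina3n. Serpina3n was not called. Crh was at 19.7 FPKM in A, and the values of Lypd1 in A and F were 15.1 and 14.3 FPKM, so that of these 6 genes all but Crh had their highest value of the 7 libraries in D. Without the restriction the first genes were Snord32a and Snord33 in C and the antisense genes Chn1os1 and Gm12224 in D, the latter at 0.917 FPKM in C and 1.90 FPKM in D.

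A test over libraries was also run. The moderated test of limma, which takes its spread from B1 and B2 (1 residual degree of freedom) and assumes that C and D vary likewise, called 0 of 11409 genes at an adjusted p of 0.05, and its smallest adjusted p was 0.432 (Benjamini-Hochberg over all genes tested). At an unadjusted p under 0.05 there were 128 genes, 65 higher in D and 63 higher in C. In simulated libraries with the spread of B1 and B2 this fit recovered none of the changes put in, so that the absence of calls says nothing of how alike C and D are.

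Isoforms were compared in the 1989 genes with 2 or more tested transcripts. In 416 of them (20.9%) 1 transcript was higher in C and another in D by intervals that did not overlap, against 770 (38.7%) between B1 and B2. In 254 (12.8%) the change in isoform share, the part of the summed FPKM of the gene, was also larger than between B1 and B2 for at least 1 transcript. Other transcripts of such a gene could change as much or more between B1 and B2. Of these 254, 2 had no share in B1 or B2 and so had no replicate reference. A transcript changed by 100 percentage points in 25 of them, and the median summed FPKM of these genes was 0.0789. Rabac1, a protein of vesicle traffic, was the exception in level, since ENSMUST00000076961 held all of its 125.8 FPKM in C and ENSMUST00000050267 all of its FPKM in the other 6 libraries, at 135.2 FPKM in D. Med12, a subunit of Mediator, was in 1 transcript at 2.18 FPKM in C and in another at 2.04 FPKM in D, but was at 0 in B1 and is 1 of the 2 without a reference, and the others of the 6 first genes, P2ry14, Iqcd, Ptger4 and Nup35, were below 1 FPKM. A share of 0 can be a failed estimate where transcripts overlap, or a transcript not listed for that library.

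When only transcripts listed in all 7 libraries were taken, in genes of at least 5 FPKM in C and D, 121 of 1274 genes had isoforms in opposite directions between C and D and 377 between B1 and B2. In 58 (4.55%) the share of a transcript changed by more than in the replicates, a choice made after the values were seen. Slc39a13, a zinc transporter, led this group. Its transcript ENSMUST00000073575 held 24.7% of the gene's FPKM in C and 70.3% in D, with 51.7% and 61.4% in B1 and B2 and 47.2% in E. The values of C and D lay on either side of the other 5 libraries for this gene.

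Atp5a1, the alpha subunit of ATP synthase, had 73.6% of its FPKM in ENSMUST00000026495 in C and 52.2% in D, but 90.8% in E. Ncoa1, a nuclear receptor coactivator, had 43.4% in ENSMUST00000072464 in C and 65.5% in D, with 73.0% and 57.8% in B1 and B2. Atp6v1a, a subunit of the vacuolar proton pump, had 48.3% in ENSMUST00000063661 in C and 28.1% in D, with 36.7% and 46.3% in B1 and B2. For Atp5a1 and Ncoa1 both shares lay within the range of the other 5 libraries, and for Atp6v1a the share in D lay below it.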

How the data were processed

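RNA of 7 S1 libraries was compared as deposited. The authors mapped paired reads to mm9 (TopHat 1.0.13) and used Cufflinks 0.8.3 for FPKM values and 95% intervals of the gene and transcript models of Ensembl 57. The deposited coverage of transcripts, a signal not scaled for depth, was used to estimate mapped fragments. The deposited files hold no counts, and de novo models were not used here.

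A model not listed for a library counted as 0 FPKM there, with an interval of 0 to 0. Symbols, biotypes and GC content came from GENCODE M21 by identifier, which names 22021 of 24130 genes, and promoters from RefSeq. Log2 ratios are on the log2(FPKM + 0.1) scale, which understates low genes. Transcripts were joined to genes by position and identifier (46376 of 46931). Tests used limma 3.58.1 in R 4.3.3, and the rest Python 3.11.15 with pandas 2.3.3. The limma fit and the calls were tested on simulated data. The calls recovered most of the changes put in. The limma fit recovered none at the spread of B1 and B2, but did recover changes at an equal spread. Recovery by the fit thus depended on the spread put in, and these recoveries do not rank the calls above the fit. No rate of false calls is given. The recovery by the calls therefore does not show how reliable they are between single pooled libraries, whose spread between mice is unknown. B1 and B2, different litters, are the only replicates, while C and D pool the same mice. A spread between pools of different mice, together with that of their libraries, is thus seen for layer 4 alone.

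The members, the 22 hand-written lists and the 18 families by symbol were chosen with earlier results of these data known. Genes were named as the 12 called with the largest ratio in each direction (mean of C and D of at least 1 FPKM), called list members (at most 6 a list) or the largest member where none was called, defining markers, the 6 largest isoform changes, and the 6 genes that exceed their neighbours most in C or D. The 16 largest of the restricted set, the genes that stand out in that set, its isoforms and other list members named for comparison were chosen after their values were seen. Some genes that these rules name are not reported here. Alternatives varied the pseudocount, scale, ratio, interval width, minimum FPKM, gene class, replicate reference and GC content.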

Additional observations from a re-analysis of the deposited data

How the results depend on the processing

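The numbers of genes called depended on the limits, and the balance of directions stayed between 48.3% and 56.2% higher in D in every alternative run. Genes called higher in D and higher in C numbered 109 and 85 with a pseudocount of 1, 86 and 85 at a ratio of at least 2, 140 and 122 with a mean of at least 1 FPKM, 148 and 125 among protein-coding genes, 88 and 87 with the 95th percentile of the ratios of B2 to B1 as reference, and 117 and 101 in the restricted set added afterwards. An interval limit of 25% left 146 higher in D. After adjustment for GC content 204 and 209 were called, of which 188 and 183 were among the main calls. This setting covered the 10801 genes with a GC content. It left out 31 main calls higher in D and 32 higher in C that the later annotation does not name. Widening the intervals 2 times left 18.1% of genes with intervals of C and D apart, against 34.3%.

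The share of genes called higher in D with E above D, 61.0% in the main setting, was 76.1% with a pseudocount of 1, 78.6% with at least 1 FPKM, 76.4% among protein-coding genes, 53.6% without a replicate reference, 53.4% with the 95th percentile and 84.6% in the restricted set. The share of genes called higher in C with B above C, 40.4% in the main setting, was 56.5%, 60.7% and 55.2% in the first 3 of these and 62.4% in the restricted set. Over all 11409 genes tested, E was above D for 58.6% and B was above C for 32.2%. The main share of 61.0% was thus close to that of all genes tested, and the shares of 53.6% and 53.4% were below it. Isoforms in opposite directions numbered 1030 genes with all transcripts, 416 without the replicate reference and 58 in the restricted set of transcripts, against 254. The cause of these changes was not tested beyond the smaller or larger sets that the limits leave.

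Leaving out B1 or B2, which removes the replicate reference, gave 327 to 331 genes higher in D, 267 to 284 higher in C, and shares with E above D of 53.8% to 54.1%. The limma test called 0 genes in all 5 alternatives, with 82 to 214 at an unadjusted p under 0.05, and could not be fitted without B1 or B2. No paired analysis was possible because replicate numbers exist for layer 4 alone. Apart from the adjustment for GC content, no setting could have changed the sign of a called gene. A pseudocount leaves the sign as it is, and scaling moves the ratios by too little. Of the ratios recomputed, none that belonged to a called gene changed its sign. This does not extend to list medians near 0. Scaling by the median of ratios shifts all log2 ratios by about −0.02, more in size than the interneuron median of 0.01.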
